A study of Mus musculus with 12 samples.

Results

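Wnt signaling in the retinal pigment epithelium (RPE) of rd6 mice was followed through 45 genes: Wnt ligands, Frizzled receptors and their co-receptors, secreted inhibitors, the R-spondin arm, and a set of effectors and feedback targets. They were chosen by symbol, as all genes named Wnt, Fzd, Sfrp, Dkk or Rspo with a number and 15 further pathway genes by name, averaging 10 or more normalized counts over the 12 libraries. Of 55 symbols that matched, 45 passed this limit and 10 fell below it, among 17768 of 28591 genes in the table that passed the same limit. The RPE came from 6 wild-type (WT) C57BL/6J mice and 6 rd6 mice, which are homozygous for the *Mfrp* rd6 allele, all 1 mo of age. In each library the RPE of both eyes of a sample was combined after the anterior segment and the neural retina had been removed. The sources used here do not say that WT and rd6 mice were littermates, and they give no sex per library. The rd6 allele is a splice mutation present in every cell of the animal, so the mutant is not restricted to the RPE.

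Wnt proteins are lipid-modified secreted ligands that bind Frizzled receptors. With the co-receptors LRP5 or LRP6, they stop the destruction complex from degrading β-catenin, which then acts with TCF/LEF factors on target genes, while other Frizzled signals act on cell polarity without β-catenin. Secreted inhibitors bind the ligands (SFRP proteins, FRZB, WIF1) or the co-receptors (DKK proteins), and R-spondins with LGR receptors keep the ubiquitin ligases ZNRF3 and RNF43 from removing Frizzled from the membrane. In the eye, β-catenin signaling is known to help specify the RPE and the ciliary margin, and FZD4 is known as the receptor for norrin in retinal vessel growth. MFRP itself carries a cysteine-rich domain of the Frizzled type.

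Between 28907262 and 33152725 reads per library were assigned to genes, and 3 reads corresponded to 2.71 to 3.32 normalized counts. All 10 RPE markers were detected in every library, and their summed level was 1482980 to 2223240 normalized counts in WT and 1394600 to 1871460 in rd6. *Mfrp* transcript was 41136 normalized counts in the median WT library (30132 to 45442) and 26281 in the median rd6 library (20442 to 29732), with every rd6 library below every WT library. Its exons overlap those of other genes in the annotation. WT replicate 4 and rd6 replicates 1 and 5 stood apart from the rest along the first principal component, which held 49.6% of the variance. The sum over 9 measured markers of ocular surface epithelium was 207123 in WT replicate 4, 68747 in rd6 replicate 1 and 108413 in rd6 replicate 5, against 7920 to 27431 in the other 9 libraries. Results below that rest on the highest library of each genotype, WT replicate 4 and rd6 replicate 5, are also given without them.

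Of the 45 genes, 12 differed between rd6 and WT RPE at an adjusted *P* (*q*) below 0.05. In the rd6 RPE 5 genes rose: *Wnt5b*, *Lef1*, *Sfrp2*, *Dkk3* and *Fzd3*. The 7 that fell were *Fzd4*, *Frzb*, *Fzd7*, *Fzd8*, *Sfrp5*, *Lgr4* and *Axin2*. These counts correspond to 11.1% higher and 15.6% lower, against 11.4% higher and 11.6% lower among all 17768 genes tested, so that the share that rose was near the background. With the further limit of a log2 difference of at least 0.81, a limit on the fold that was also applied in the study, limma called 4 genes higher (background 4.69%) and 0 lower (background 2.12%). The count lower was also 0 at an unadjusted *P* below 0.05 and with edgeR and DESeq2. The count higher was 3 with edgeR and DESeq2 and ran from 3 to 5 over the alternative analyses. The 6 rd6 libraries were all above the WT range for *Wnt5b* and *Lef1* (background 5.77%) and all below it for *Fzd4*, *Fzd7* and *Lgr4* (background 5.67%). The median difference (rd6 minus WT, on the log2(normalized count + 1) scale used for all differences below) was 0.11 over the 45 genes and 0.0049 over all genes tested. The median over the members ran from 0.030 without rd6 replicate 1 to 0.17 without WT replicate 4 and was -0.0065 over members with at least 10 in every library, so no direction is read from it.

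**Figure D1:**
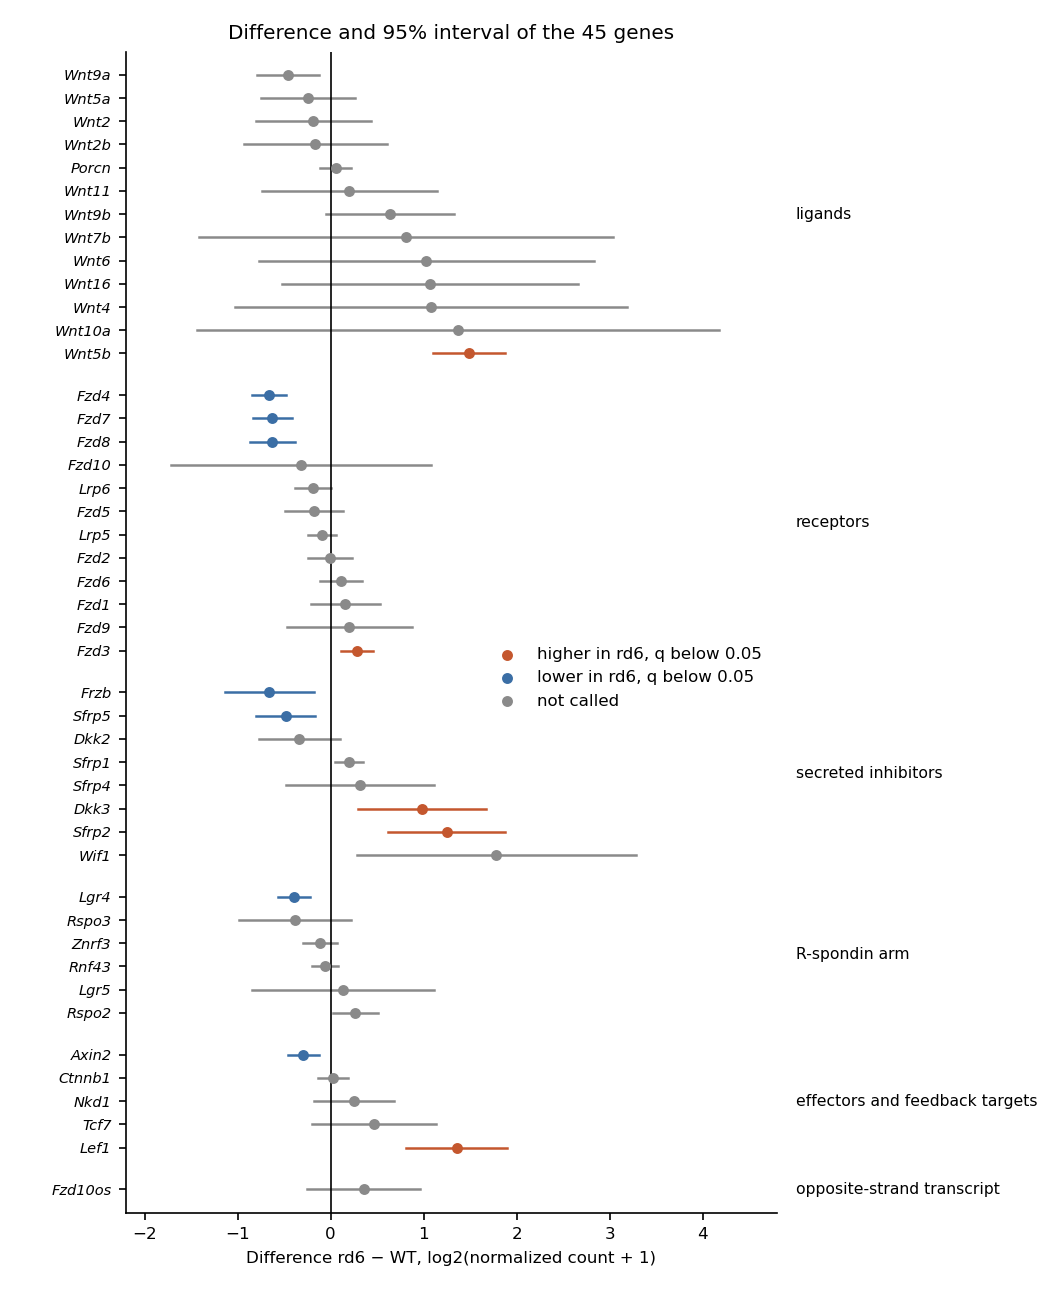
Difference between rd6 and WT (x axis, log2 scale of the normalized count + 1) for each of the 45 genes (y axis), grouped by role, with lines for the 95% interval from limma and colors for the call at *q* below 0.05. The 5 orange genes were higher and the 7 blue genes lower in rd6, and the intervals of *Wnt10a*, *Wnt7b* and *Wnt4* are among the widest.

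The 5 genes whose genotypes did not overlap are shown with the 250 bases before their transcription start, since they carry the clearest difference among libraries. The sequences are RefSeq windows on GRCm38.p6, 5′ to 3′ along the strand of the gene. Where several starts are listed (3 for *Wnt5b*, 4 for *Lef1*), the outermost is printed. Capitals mark a match to letters known from TCF/LEF, MITF or OTX sites, each searched on both strands, with no overlap between the matches found. For TCF/LEF factors, the letters CTTTGAA were searched along with the variant CTTTGTT, the variant CTTTGAT and the further variant CTTTGTA. For MITF the E-box CACGTG was used, and for OTX factors the letters TAATCC.
*Wnt5b*, chr6:119544348-119544597, minus strand: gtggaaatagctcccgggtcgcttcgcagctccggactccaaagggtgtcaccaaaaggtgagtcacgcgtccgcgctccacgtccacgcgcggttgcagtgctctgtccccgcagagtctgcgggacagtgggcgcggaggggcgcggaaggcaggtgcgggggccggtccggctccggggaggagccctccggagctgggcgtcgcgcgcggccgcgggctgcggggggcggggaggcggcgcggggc
*Lef1*, chr3:131110047-131110296, plus strand: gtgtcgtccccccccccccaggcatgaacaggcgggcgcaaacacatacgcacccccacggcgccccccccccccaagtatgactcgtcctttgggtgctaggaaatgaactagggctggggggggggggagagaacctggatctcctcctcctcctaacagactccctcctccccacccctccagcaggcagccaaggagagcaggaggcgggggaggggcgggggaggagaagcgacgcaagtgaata
*Fzd4*, chr7:89404116-89404365, plus strand: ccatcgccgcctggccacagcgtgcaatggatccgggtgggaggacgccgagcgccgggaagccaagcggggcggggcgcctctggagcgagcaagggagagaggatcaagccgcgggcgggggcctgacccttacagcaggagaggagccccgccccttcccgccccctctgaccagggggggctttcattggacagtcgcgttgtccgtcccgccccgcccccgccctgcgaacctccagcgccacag
*Fzd7*, chr1:59481897-59482146, plus strand: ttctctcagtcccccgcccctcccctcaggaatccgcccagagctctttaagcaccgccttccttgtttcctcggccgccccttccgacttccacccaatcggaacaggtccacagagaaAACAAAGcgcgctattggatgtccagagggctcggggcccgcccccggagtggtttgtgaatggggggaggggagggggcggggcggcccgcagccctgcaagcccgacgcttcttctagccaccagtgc
*Lgr4*, chr2:109917397-109917646, plus strand: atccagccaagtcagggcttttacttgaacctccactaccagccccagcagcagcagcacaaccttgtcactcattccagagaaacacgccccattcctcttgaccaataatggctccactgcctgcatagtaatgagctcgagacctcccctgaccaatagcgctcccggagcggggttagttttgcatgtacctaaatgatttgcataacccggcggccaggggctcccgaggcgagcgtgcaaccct
Only the *Fzd7* window of these 5 held a match, AACAAAG on the minus strand with its first base 130 bases before the start. Windows of inner starts of *Wnt5b* (CTTTGAT, 71 bases before the start) and *Lef1* (TACAAAG, 147 bases, and CACGTG, 79 bases before the start) also held matches. Windows were listed for 27 of the 45 genes, 36 in all. A TCF/LEF match lay in 4 of these 36 (11.1%) and in 14.8% of the 32851 windows of all genes. CACGTG was in 4 member windows (11.1%, against 6.02% of all windows) and TAATCC likewise in 4 (11.1%, against 6.25%).

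The level of the pathway genes, compared between genes per kilobase (kb) of merged exons, spanned 3 orders of magnitude in WT RPE. *Ctnnb1*, which encodes β-catenin, was highest at 3716 normalized counts per kb, and then came the secreted inhibitors *Sfrp1* (2844), *Dkk3* (2703) and *Sfrp5* (1920), with *Fzd4* (2025) between the last 2. The place of *Dkk3* rests on WT replicate 4, without which its level was 1910 per kb, below *Fzd4* (2090) and *Sfrp5* (2057). *Fzd7* (773), *Lrp6* (415), *Lgr4* (356), *Fzd8* (340) and *Lrp5* (302) were next. Wnt ligands were far lower: *Wnt9a* (67.2), *Wnt4* (65.8) and *Wnt5b* (63.1) had the highest means among them in WT, and the other 9 ligand genes lay between 5.81 and 27.3 per kb. The mean of *Wnt4* rests on WT replicate 4: without that library it was 13.6 per kb, and by the median WT library (14.4 per kb) *Wnt4* was below *Wnt9a*, *Wnt5b*, *Wnt5a*, *Wnt2b* and *Wnt2*. In rd6, *Wnt5b* was the ligand with the highest level, 173 per kb.

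Of the 13 genes grouped as ligands, which include the Wnt acyltransferase gene *Porcn*, only *Wnt5b* was called (7.69%, against 23.0% of all genes tested). WNT5B is a ligand best known for signaling without β-catenin. *Wnt5b* (chromosome 6, 119432531 to 119544347, minus strand) had 108 normalized counts in the lowest, 157 in the median and 247 in the highest WT library. In rd6 the lowest library had 356, the median 470 and the highest 542. All 6 rd6 libraries were thus above all 6 WT libraries. The rise was 2.80-fold (log2 difference 1.49 ± 0.18 SE, *q* = 7.29e-05), and it held in all 23 alternative analyses, including the one without WT replicate 4 and rd6 replicate 5 (1.58, *q* = 0.000144). *Wnt5a*, its closest relative, averaged 213 ± 65.3 (WT) and 181 ± 62.1 (rd6) normalized counts (mean ± SD, n = 6 each, as in all such pairs below) and was not called, with a 95% interval of the difference from -0.75 to 0.26.

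Markers of other cell types moved with genotype as well. Of 10 markers of microglia and macrophages 9 rose (median difference 2.71, summed level 16363 to 21394 in WT and 26951 to 41236 in rd6), and of 10 markers of endothelium 8 rose (median difference 0.85, summed level 6898 to 13270 in WT and 11729 to 26052 in rd6). None of these markers was at 0 in any library. Of 10 mural cell markers 3 rose, and of 10 stromal markers 1 fell. Over all genes tested, 11.4% rose and 11.6% fell. In bulk RNA, more cells of a type and more of a transcript per cell cannot be told apart, and the part of these cells in the rise of *Wnt5b*, or of *Lef1* and *Sfrp2* below, was not tested.

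*Wnt9a* was the ligand with the highest level per kb in WT. Its values ran from 184 to 246 (median 232) in WT and from 100.4 to 202 (median 173) in rd6, with 4 rd6 libraries below every WT library. The difference of -0.45 ± 0.15 missed the threshold at *q* = 0.0505 and passed it in 6 of 23 alternatives. *Porcn*, whose product adds the lipid that Wnt proteins need for secretion and which had the highest level per kb in this group, spanned 529 to 641 (median 601) in WT and 522 to 712 (median 608) in rd6. It was not called, and its 95% interval ran from -0.11 to 0.22.

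Another set of ligands differed among libraries of the same genotype far more than between genotypes. *Wnt4* was 1369 normalized counts in WT replicate 4, 1042 in rd6 replicate 5, 555 in rd6 replicate 1 and 239 in rd6 replicate 2, and 27.6 to 102 in the other 8 libraries. *Wnt7b* was 335, 232, 129 and 50.5 in the same 4 libraries and 5.54 to 32.0 in the others. *Wnt10a* was 246, 141, 122 and 33.0 there and 0 to 21.01 elsewhere. The same libraries had the highest summed levels of the 9 ocular surface epithelium markers (207123, 108413, 68747 and 27431), a list with 5 members at 0 in at least 1 library. The median difference over this list was 2.20, and its median summed level was 10301 in WT and 20277 in rd6. Of its 9 members 0 were called, by limma, edgeR or DESeq2 or at an unadjusted *P* below 0.05, and the part of these cells in the ligand levels was not tested. None of *Wnt4*, *Wnt7b*, *Wnt10a*, *Wnt6*, *Wnt16* and *Wnt11* was called (*q* = 0.326 to 0.773), with SEs from 0.43 to 1.30, and 0 of the 6 passed an unadjusted *P* of 0.05 in limma or the threshold in edgeR, DESeq2 or limma without WT replicate 4 and rd6 replicate 5. The remaining ligands *Wnt2*, *Wnt2b* and *Wnt9b* were not called either, with means of 31.6 to 85.8 in WT and 37.2 to 84.8 in rd6.

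**Figure D2:**
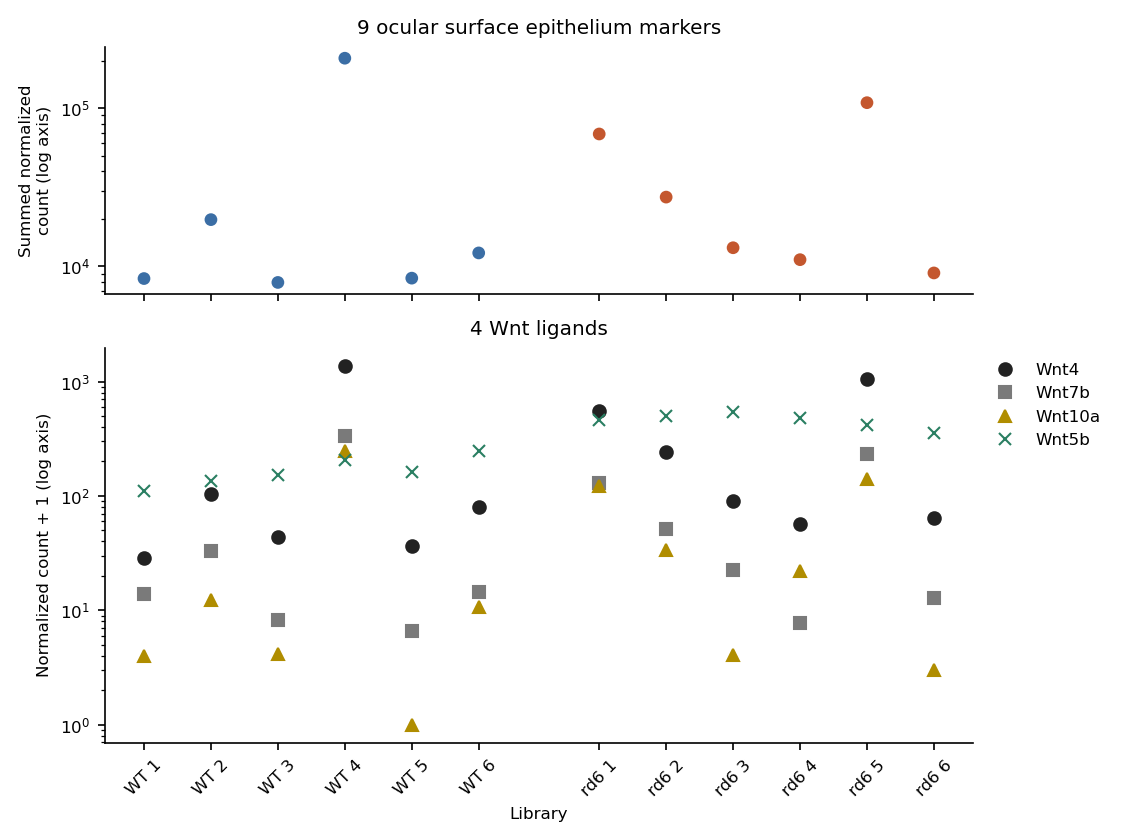
Summed normalized counts of 9 ocular surface epithelium markers (top, log axis, WT in blue and rd6 in orange) and normalized counts + 1 of *Wnt4*, *Wnt7b*, *Wnt10a* and *Wnt5b* (bottom, log axis) in each of the 12 libraries (x axis). *Wnt4*, *Wnt7b* and *Wnt10a* were highest in WT 4, rd6 5 and rd6 1, as the markers were, whereas *Wnt5b* was between 108 and 247 in WT and between 356 and 542 in rd6.

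Among the 12 receptors and co-receptors, 3 fell (25%, background 11.6%) and 1 rose (8.33%, background 11.4%). The 3 that fell were the 3 Frizzled genes with the highest levels in WT. *Fzd4* (chromosome 7, 89404355 to 89413134, plus strand) ran from 11425 to 14773 normalized counts in WT, with a median of 13777. In rd6 it ran from 7757 to 10676, with a median of 8355. No rd6 library reached the lowest WT library, and the highest rd6 library, replicate 6, stood well above the other 5. The fall was 1.58-fold (log2 difference -0.66 ± 0.08, *q* = 0.000103).

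*Fzd7* (chromosome 1, 59482424 to 59486955, plus strand), a receptor that can signal through β-catenin, had 2859 to 3999 normalized counts in WT (median 3699) and 1809 to 2510 in rd6 (median 2318). Its groups did not overlap, and it was 1.54-fold lower (-0.63 ± 0.10, *q* = 0.000521). *Fzd8*, a close relative of *Fzd5*, had 1629 to 2273 in WT (median 2079) and 1034 to 1666 in rd6 (median 1310). Of its 6 rd6 libraries 5 were below every WT library, the exception being replicate 6 against WT replicate 4, and the difference was -0.63 ± 0.11 (*q* = 0.0017). *Fzd4*, *Fzd7* and *Fzd8* were called lower in all 23 alternatives.

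*Fzd3*, which is known for axon guidance and planar polarity, was the receptor that rose. It was 528 to 593 in WT (median 567) and 592 to 819 in rd6 (median 670), and 5 rd6 libraries exceeded every WT library, with rd6 replicate 5 just below the highest WT value. The rise was 1.22-fold (0.29 ± 0.08, *q* = 0.0203), and it was called in all 23 alternatives. *Fzd1*, *Fzd2*, *Fzd5*, *Fzd6*, *Fzd9* and *Fzd10* were not called. Of these, *Fzd2* averaged 263 ± 44.98 (WT) and 259 ± 20.6 (rd6), with an interval of -0.24 to 0.23. *Fzd10*, at 27.5 ± 28.0 and 21.6 ± 15.2, had a much wider interval of -1.72 to 1.08. The exons of *Fzd5* and *Fzd6* overlap genes on the opposite strand. No source used here says that strand was used in counting, and without it such reads cannot be told apart.

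The co-receptor genes were not called. *Lrp6* averaged 5680 ± 213 (WT) and 5018 ± 717 (rd6) (difference -0.19, interval -0.39 to 0.00, *q* = 0.146). *Lrp5* had 2944 ± 146 and 2776 ± 306 (interval -0.24 to 0.06, *q* = 0.389).

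Summed over the 10 Frizzled genes, the level per kb was 3789 ± 247 in WT (3464 to 4047) and 2698 ± 202 in rd6 (2347 to 2949), and the ranges did not overlap. The difference of the mean sums was -1091 normalized counts per kb, of which *Fzd4* contributed -742, *Fzd7* -274 and *Fzd8* -118. The other 7 genes together changed the sum in the opposite direction. The share of *Fzd4* in the sum was 53.4% ± 2.29 in WT and 47.5% ± 3.60 in rd6, and those of *Fzd7* were 20.3% and 18.5%. *Fzd6* went from a share of 5.89% ± 1.22 to 8.86% ± 0.99 and *Fzd1* from 5.87% ± 1.49 to 9.25% ± 2.24. The share of *Fzd3*, 1.17% ± 0.11 in WT and 2.01% ± 0.25 in rd6, was above the WT range in all 6 rd6 libraries. These sums and shares describe genes chosen by family and were not tested.

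**Figure D3:**
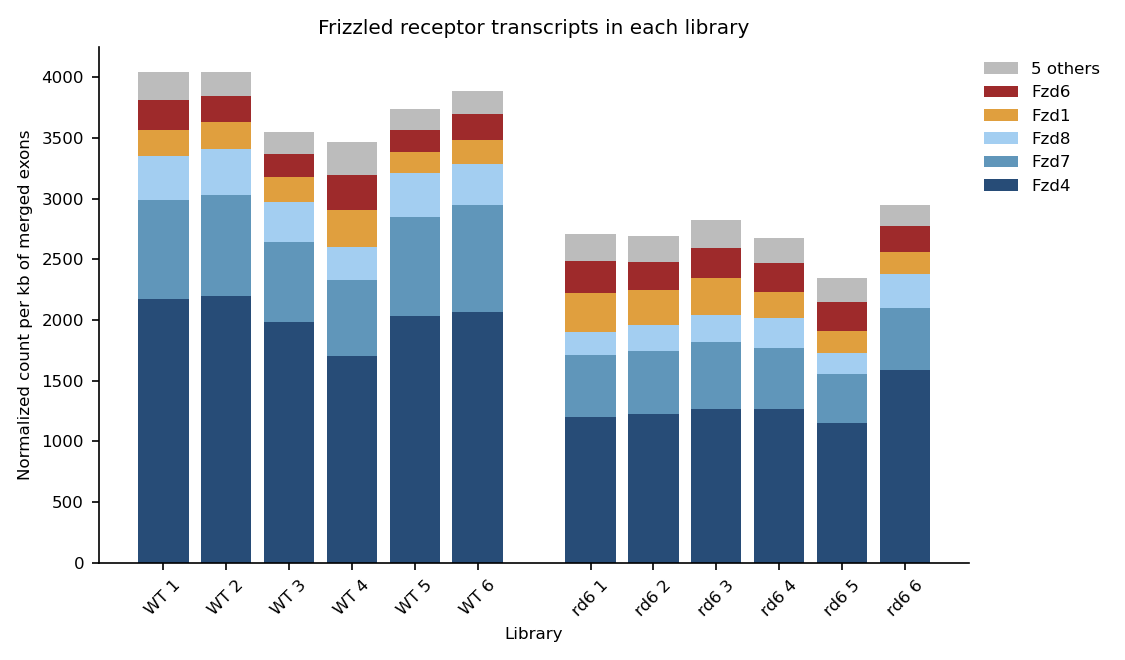
Normalized counts per kb of merged exons (y axis) of the 10 Frizzled genes, stacked, in each of the 12 libraries (x axis), with the 5 genes of lowest level joined as 5 others. The WT bars reach 3464 to 4047 and the rd6 bars 2347 to 2949, and the *Fzd4* segment is the largest in every library.

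In the same libraries, 4 of 10 RPE markers fell (*Rpe65*, *Lrat*, *Rgr* and *Rlbp1*) and 0 rose by limma, also 0 at an unadjusted *P* below 0.05 or with edgeR or DESeq2, with a median difference of -0.26 over the list and none of the 10 at 0 in any library. Other RPE markers, *Ttr*, *Tyrp1* and *Otx2*, were not called. The background for these lists is 11.4% higher and 11.6% lower. Of 9 markers of ciliary body and iris 1 rose and 1 fell (summed level 27923 to 36527 in WT and 21176 to 28060 in rd6), of 9 Müller glia markers 2 fell (234539 to 326520 and 191113 to 245733), one of them *Rlbp1*, which is also on the RPE list, and of 10 markers of melanocytes and Schwann cells 3 fell (13205 to 31178 and 11281 to 21359). The part of a change in any of these cells in the falls of the Frizzled genes, or of *Sfrp5* and *Lgr4* below, was not tested.

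The 8 secreted inhibitors were split, with 2 higher and 2 lower (25% each, background 11.4% and 11.6%). *Sfrp2*, which encodes a soluble Frizzled-like protein, ran from 61.9 to 175 normalized counts in WT (median 111) and from 162 to 383 in rd6 (median 289). Its rd6 libraries were above every WT library in 5 of 6 cases, replicate 4 being the exception, and the rise was 2.37-fold (1.25 ± 0.29, *q* = 0.00813), called in all 23 alternatives. *Sfrp2* overlaps a gene on the opposite strand.

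*Dkk3*, which encodes a Dickkopf relative that does not act on LRP6 like DKK1, was among the most abundant of all 45 genes. Its WT values were 4685 to 9064 in 5 libraries and 22392 in replicate 4 (median of all 6, 6401), and its rd6 values were 10381 to 18696 (median 16382). WT replicate 4 was thus above all 6 rd6 libraries, and the other 5 WT libraries were below them. With all libraries the rise was 1.97-fold (0.98 ± 0.32, *q* = 0.0411). It was called in 8 of 23 alternatives, among them the analysis without WT replicate 4, where the difference was 1.29 (*q* = 0.000225), and the one without WT replicate 4 and rd6 replicate 5 (1.25, *q* = 0.000557), and it was not called by edgeR (*q* = 0.106 to 0.135) or DESeq2 (*q* = 0.171).

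*Sfrp5* and *Frzb* were lower in rd6. *Sfrp5* had 2345 to 4266 normalized counts in WT (median 3979) and 2070 to 3141 in rd6 (median 2609), and only 2 rd6 libraries were below the lowest WT library, replicate 4. The fall was 1.40-fold (-0.48 ± 0.15, *q* = 0.0323) and was called in 14 of 23 alternatives. The difference of *Sfrp5* was -0.60 without WT replicate 4 (*q* = 0.0017) and -0.57 without WT replicate 4 and rd6 replicate 5 (*q* = 0.00353). *Frzb*, also called *Sfrp3*, was a low gene with 65.1 to 90.2 in WT (median 71.9) and 26.7 to 80.1 in rd6 (median 44.4). All rd6 libraries except replicate 3 were below the WT range, and the fall was 1.58-fold (-0.66 ± 0.22). The *q* of 0.0476 lay close to the threshold, and *Frzb* was called in only 8 of 23 alternatives.

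*Sfrp1*, the most abundant secreted inhibitor per kb in WT, spanned 11169 to 13448 in WT (median 12358) and 11869 to 15471 in rd6 (median 14531). In rd6, 5 libraries were above every WT library, and replicate 5 was inside the WT range. Its difference of 0.20 ± 0.07 missed the threshold (*q* = 0.0593) and passed it in 5 of 23 alternatives, including the one without WT replicate 4 and rd6 replicate 5 (0.22, *q* = 0.00707). *Wif1*, which binds Wnt ligands directly, had 1.11 to 13.8 normalized counts in 5 WT libraries, 48.6 in WT replicate 4 and 12.9 to 49.6 in rd6. With all libraries it was not called (1.78 ± 0.69, *q* = 0.0833), but without WT replicate 4 the difference was 2.31 (*q* = 0.00966), and without WT replicate 4 and rd6 replicate 5 it was 2.43 (*q* = 0.011). In WT replicates 3, 5 and 6 *Wif1* was at or under 3 reads (3.11, 1.11 and 1.93 normalized counts), so the size of these differences is uncertain. *Dkk2* and *Sfrp4* were not called (*q* = 0.253 and 0.576).

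Of the 6 genes of the R-spondin arm, 1 fell (16.7%, background 11.6%). *Lgr4*, the R-spondin receptor gene with the highest level in this RPE (chromosome 2, 109917647 to 110014257, plus strand), had 1829 to 2406 normalized counts in WT (median 2023) and 1493 to 1797 in rd6 (median 1554). The groups did not overlap, and the fall was 1.31-fold (-0.39 ± 0.08, *q* = 0.00333), called in all 23 alternatives. Its relative *Lgr5* had 28.8 ± 16.5 in WT and 34.3 ± 21.7 in rd6. The ubiquitin ligase genes *Znrf3* (389 ± 32.6 and 360 ± 38.0, interval -0.30 to 0.07) and *Rnf43* (452 ± 37.7 and 432 ± 14.4, interval -0.20 to 0.07) were not called. Among the ligands of this arm, *Rspo2* had 80.3 ± 5.16 in WT and 97.5 ± 13.5 in rd6 (*q* = 0.106), and *Rspo3* was at 21.8 ± 8.23 and 16.1 ± 4.26 (*q* = 0.359). *Rspo1* and *Rspo4* were below the limit on the mean.

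Among the 5 effectors and feedback targets, *Lef1* rose and *Axin2* fell (20% each, background 11.4% and 11.6%). *Lef1* encodes a DNA-binding partner of β-catenin. It was the gene of lowest level per kb in this group, 4.47 in WT and 11.5 in rd6. Its normalized counts were 24.2 to 60.2 in WT (median 37.9) and 64.9 to 146 in rd6 (median 94.0), so that all rd6 libraries were above all WT libraries. The rise was 2.56-fold (1.35 ± 0.25, *q* = 0.00186), called in all 23 alternatives. *Axin2*, a feedback target that encodes a scaffold of the destruction complex, had 1057 to 1394 in WT (median 1162) and 871 to 1124 in rd6 (median 938). Of the rd6 libraries 5 were below the WT range, replicate 1 was inside it, and the fall was 1.22-fold (-0.29 ± 0.08, *q* = 0.0138), again called in all 23 alternatives. Both genes overlap genes on the opposite strand. These 2 genes thus differed in opposite directions. The other feedback gene, *Nkd1*, had 67.9 ± 24.5 in WT and 77.5 ± 7.62 in rd6 (*q* = 0.401), and *Tcf7*, a relative of *Lef1*, had 68.1 ± 37.7 and 86.4 ± 23.0 (*q* = 0.304).

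*Ctnnb1*, the most abundant of the 45 genes per kb, ran from 16820 to 20813 normalized counts in WT (median 19923) and from 16813 to 21703 in rd6 (median 20308). Its 95% interval of -0.13 to 0.19 lay within the log2 limit of 0.81, and protein was not measured in these libraries.

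**Figure D4:**
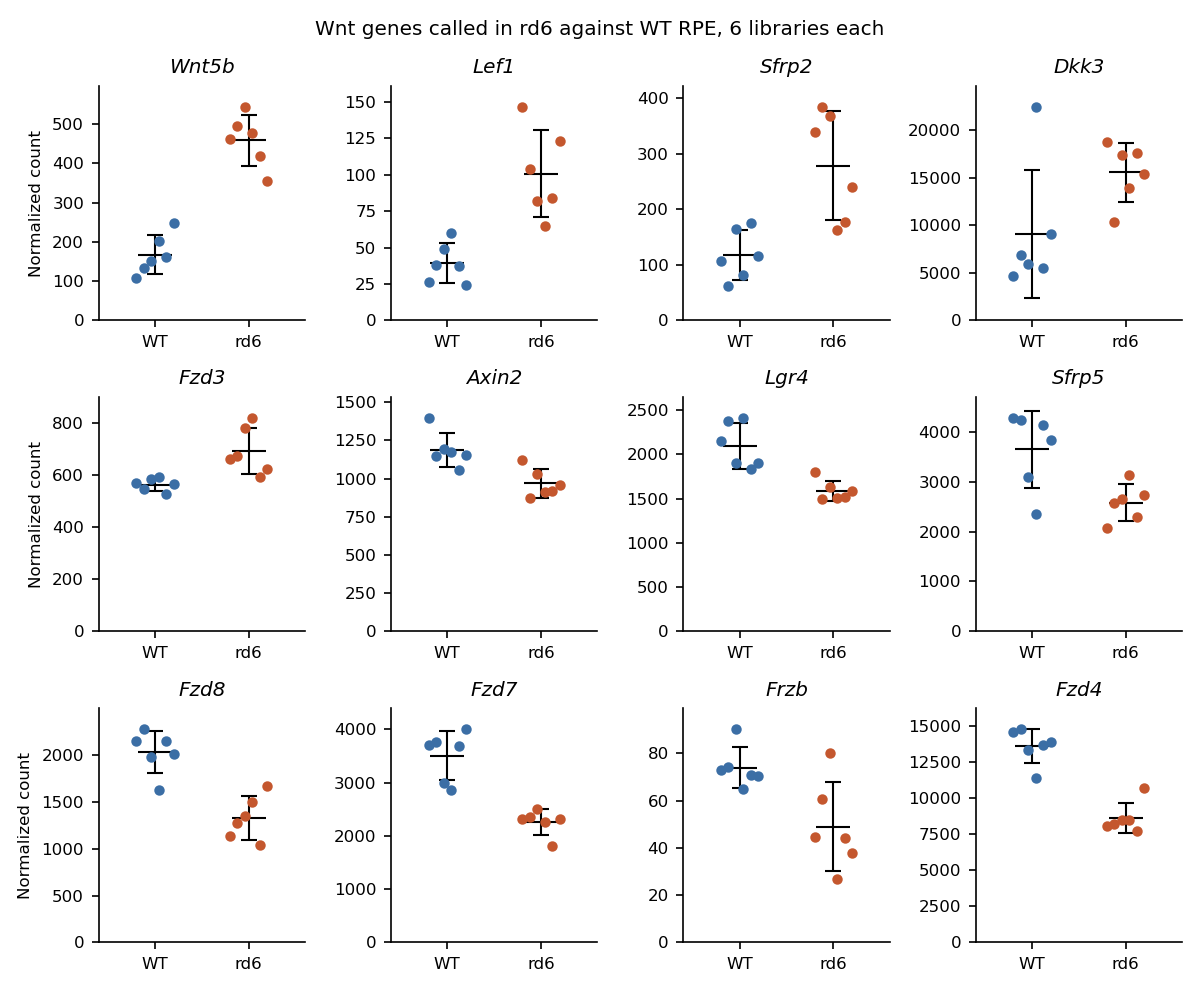
Normalized counts (y axes, each from 0) of the 12 called genes in 6 WT (blue) and 6 rd6 (orange) libraries. Points are libraries, and black bars are the mean ± SD, and the panels run from the largest rise to the largest fall. *Wnt5b*, *Lef1*, *Lgr4*, *Fzd7* and *Fzd4* show no overlap between genotypes, and the single high WT point of *Dkk3* is replicate 4.

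The 10 genes that fell below the limit on the mean had few reads, though not all were under the counting floor. *Rspo1* had 1 to 9 reads in WT and 4 to 13 in rd6. *Wnt3*, *Wnt3a*, *Wnt7a*, *Wnt8b* and *Wnt10b* had between 0 and 9 reads in every library, except for 39 reads of *Wnt3a* in a WT library and 12 in an rd6 library, *Dkk1* had 0 to 15 reads, and *Lgr6* 0 to 7. Of the symbols searched, *Fzd10os*, a transcript on the strand opposite to *Fzd10*, averaged 10.98 ± 2.37 (WT) and 15.1 ± 5.75 (rd6) and was not called (*q* = 0.392).

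The wider pathway was read from lists of further genes, of which 87 were tested. Of these, 7 rose and 17 fell, which is 8.05% and 19.5% against the background of 11.4% and 11.6%, with a median difference of -0.02. The count that fell was 10 without WT replicate 2 (11.5%, background 8.94%) or rd6 replicate 1 (11.5%, background 10.2%), 11 without WT replicate 3 (12.6%, background 9.15%), 10 with upper-quartile scaling (11.5%, background 8.91%) and 9 with the replicate block (10.3%, background 8.38%). The lists were written with earlier results of these data known, so the counts describe them and are no independent evidence.

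In secretion and extracellular control, 2 of 12 genes rose (16.7%, background 11.4%) and 3 fell (25%, background 11.6%). *Wls*, the carrier that takes Wnt proteins to the cell surface, fell from 17276 to 22098 normalized counts in WT (median 21122) to 11812 to 16385 in rd6 (median 14976), with no overlap (1.40-fold, -0.48 ± 0.08, *q* = 0.00109). *Sostdc1*, which encodes an antagonist of Wnt and BMP signals, fell from a median of 7301 (5693 to 7767) to 3812 (2814 to 4387), again with no overlap (1.90-fold, -0.93 ± 0.10, *q* = 4.43e-05). Its relative *Sost* rose at a low level, from 0 to 9.96 in WT to 12.9 to 52.4 in rd6 (2.70 ± 0.63, *q* = 0.00837). *Apcdd1*, a membrane inhibitor and target gene, had 52.0 to 534 in WT (median 91.3) and 306 to 353 in rd6 (median 310). All rd6 libraries were below WT replicate 4 and above the other 5 WT libraries, and *Apcdd1* was called (1.48 ± 0.43, *q* = 0.025). The difference was 1.92 without WT replicate 4 (*q* = 1.27e-05) and 1.90 without it and rd6 replicate 5 (*q* = 3.89e-05). *Apcdd1* was called in 16 of 22 alternatives that gave a *q*, and not by edgeR (0.98 to 1.03, *q* = 0.15 to 0.18) or without WT replicate 1, 3 or 6 (*q* = 0.0503 to 0.0558).

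The 17 co-receptor and noncanonical genes held 2 that rose (11.8%, background 11.4%) and 3 that fell (17.6%, background 11.6%). *Daam1*, which links Dishevelled to actin in the polarity branch, rose from 2600 to 3571 normalized counts in WT (median 3141) to 6204 to 7927 in rd6 (median 6737), 2.25-fold with no overlap (1.17 ± 0.09, *q* = 1.05e-06). Its paralog *Daam2* was lower, at 770 to 1306 in WT (median 913) and 716 to 775 in rd6 (median 726), with *q* = 0.0354. *Celsr2*, a polarity cadherin, rose 1.34-fold (*q* = 0.0121), and *Celsr3* fell 2.58-fold (-1.37, *q* = 0.0328). The difference of *Celsr3* was -1.26 without WT replicate 4 (*q* = 0.0531) and -1.635 without WT replicate 4 and rd6 replicate 5 (*q* = 0.00138). *Celsr3* was 97.5 normalized counts in rd6 replicate 5 and 13.4 to 31.5 in the other rd6 libraries, while the sum of 10 rod photoreceptor markers, of which 2 fell (median difference -0.97, none at 0 in any library), was 54461 in rd6 replicate 5 and 11314 to 17119 in the others. In WT, *Celsr3* was 82.6 to 100.03 in replicates 2, 3 and 4 (rod sums 50900 to 57869) and 42.1 to 58.0 in the other 3 (23280 to 32255), and the part of rods in its fall was not tested. *Ror1*, *Ror2* and *Ryk*, receptors that take up WNT5-type ligands, were not called, and *Ryk* had 1923 ± 111 in WT and 1897 ± 97.7 in rd6.

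Of 25 genes of the destruction complex and cytoplasm 2 rose (8%, background 11.4%) and 6 fell (24%, background 11.6%). *Amer1*, which brings APC to the membrane, fell 1.503-fold with no overlap (-0.59 ± 0.11, *q* = 0.00153), and *Apc* itself fell 1.21-fold (-0.28, *q* = 0.0154). *Dact3*, an inhibitor of Dishevelled, rose 1.55-fold with no overlap (0.63 ± 0.09, *q* = 0.000191). The related zinc finger genes *Cxxc4* and *Cxxc5*, whose products bind Dishevelled, differed in opposite directions, with *Cxxc4* 1.33-fold lower (*q* = 0.0299) and *Cxxc5* 1.43-fold higher (*q* = 0.0107). *Gsk3b* had 4049 ± 229 in WT and 4054 ± 293 in rd6.

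In the nucleus 0 of 17 genes rose by limma (3 at an unadjusted *P* below 0.05, 0 by edgeR and 1 by DESeq2), and 3 fell: *Tle2* (1.87-fold, *q* = 0.0215), *Pygo1* (1.24-fold, *q* = 0.0213) and *Tle4* (1.23-fold, *q* = 0.0311). The 3 that fell were 17.6% of this list (background 11.6%). TLE proteins repress TCF targets, and PYGO1 is a co-activator. Of 18 target genes outside the 45, 2 rose and 2 fell (11.1% each, near the background of 11.4% and 11.6%). *Ccnd1*, which encodes cyclin D1, fell from a median of 14000 normalized counts (10693 to 14314) to 4639 (4400 to 6613), 2.68-fold with no overlap (-1.42 ± 0.11, *q* = 1.33e-06), and *Sox9* fell 1.27-fold (*q* = 0.0414). *Ccn5* rose 2.64-fold (1.40 ± 0.29, *q* = 0.00374) and *Apcdd1*, also a target, rose as given above.

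Some of these calls depended on the analysis, that of *Apcdd1* as given above. *Celsr3* and *Sox9* were called in 10 of 23 alternatives, *Daam2* in 14, *Cxxc4* in 16 and *Tle4* in 18, while *Celsr2* (*q* = 0.0541) and *Pygo1* (*q* = 0.0553) lost their call with the replicate block. Without WT replicate 4, the number of the 87 genes that rose went from 7 to 15 (17.2%, against 13.7% of all genes in that analysis), with *Nkd2*, *Ptk7*, *Bambi*, *Tspan12*, *Gpc4*, *Jun*, *Tcf7l1* and *Sox7* added. These 8 were named after their values were seen. The exons of *Ctnnb1*, *Wnt5a*, *Wnt7b*, *Wnt11* and *Rspo3*, and of *Ccnd1*, *Tle2*, *Cxxc4*, *Cxxc5*, *Celsr3*, *Tspan12*, *Jun* and *Tcf7l1* in the wider lists, also overlap those of other annotated genes (on the same strand for *Celsr3*, on both strands for *Ctnnb1* and *Cxxc5*, and on the opposite strand for the rest). Reads from same-strand overlaps cannot be assigned to 1 gene by strand, and those from opposite-strand overlaps cannot be told apart when strand is not used in counting, so these values are uncertain to that extent.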

How the data were processed

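RNA-seq libraries of RPE from 6 WT and 6 rd6 mice were compared. Per the labels and the study's methods, the authors made stranded total-RNA libraries, sequenced them as read pairs, aligned and counted them with Rsubread on mm10 and normalized the counts with DESeq2. Rsubread was run with standard parameters, per the study's methods, and tool versions, annotation and a strand setting are not named in the sources used here. The deposited values are a normalized signal, which the authors obtained by dividing each gene's reads by the size factor of the library. Further deposited columns hold the mean, log2 fold change with its standard error, Wald score and p-values of the authors' own comparison and were not used. All 12 library columns were matched to samples by name, and 5 repeated entries were dropped, leaving 28591 genes. Every value was a whole multiple of 1 read (100% within 0.001), which gave read counts, and all 66 pairs of libraries differed beyond sampling noise. Depth and floors cover counting error only.

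Differences were tested with limma 3.58.1 (R 4.3.3; lmFit, eBayes with trend) on log2(value + 1) over 17768 genes with a mean of at least 10, genotype as the only term, two-sided, with Benjamini-Hochberg adjustment over all of them. The added pseudocount makes ratios of low values smaller. In low genes that vary between libraries, the change on this scale can still exceed the ratio of the group means, as for *Wif1* (3.44-fold against 2.15). Calls used *q* below 0.05. Alternatives were pseudocounts of 0.1 and 10, no filter, 10 in every library, TMM rescaling, edgeR 4.0.16 (TMM, RLE, upper quartile) and DESeq2 1.42.0 on the reads, a replicate block, each library left out, and, chosen after seeing the data, WT replicate 4 and rd6 replicate 5 left out. The code was tested on simulated data. Coordinates and merged exon lengths are from GENCODE M21 (GRCm38), which held 28510 of the genes, and start windows are from RefSeq. The members and the pathway and marker lists were chosen with earlier results of these data known. Values are given for all called members and the member of highest level per kb in each role group, and for up to 4 called genes per pathway list with the largest change. Genes named beyond this rule, such as those near the threshold, were chosen after their values were seen. Each library is labelled a replicate of its genotype, and the sources used here do not say how animals were assigned, so p-values measure the spread between these libraries.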

Additional observations from a re-analysis of the deposited data

Results flagged for a closer look

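In each genotype the highest and the lowest library of every member were compared with the rest by Dixon's test for 6 values, in 90 groups, of which chance alone is expected to mark about 4.5. It marked 17, and 11 of them were WT replicate 4. In that library the ligands *Wnt4* (1369 normalized counts against at most 102 in the other WT libraries), *Wnt7b* (335 against 32.0), *Wnt10a* (246 against 11.4), *Wnt16* (109.7 against 42.3), *Wnt6* (73.8 against 14.4) and *Wnt11* (64.1 against 20.7) were high. The receptors *Fzd1* (1282 against 938), *Fzd5* (777 against 519) and *Fzd10* (82.6 against 29.6) and the inhibitors *Dkk3* (22392 against 9064) and *Wif1* (48.6 against 13.8) were high there as well. WT replicate 4 also had the highest sum of ocular surface epithelium markers, and the part of those cells in these 11 values was not tested.

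The other 6 marked values were spread over 5 libraries. They were *Wnt9b* in WT replicate 5 (65.3 against 32.0), *Frzb* (90.2 against 74.3) and *Sfrp4* (63.3 against 26.2) in WT replicate 3, *Fzd4* in rd6 replicate 6 (10676 against 8515), *Tcf7* in rd6 replicate 1 (129.8 against 88.7) and, as the only low value, *Fzd7* in rd6 replicate 5 (1809 against 2260).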

How the results depend on the processing

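Over 23 alternatives, 970 of 1025 comparisons of a member kept their side of the threshold. The sign changed in 18, all of them for 6 members that were not called (*Fzd2*, *Lgr5*, *Wnt2b*, *Fzd10*, *Wnt2* and *Ctnnb1*), and in 0 for called members. Members higher numbered 4 to 7 (5 in the report) and members lower 5 to 8 (7 in the report). Members higher past the fold limit numbered 3 to 5 (4 in the report). Members lower past the fold limit numbered 0 to 1 with a library left out, the 1 arising without rd6 replicate 3. The other pathway genes that fell (17) numbered 10 with upper-quartile scaling and 10 to 18 with a library left out, with 10 without WT replicate 2 or rd6 replicate 1 and 11 without WT replicate 3. Those that rose (7) numbered 6 to 15 with a library left out, the 15 without WT replicate 4, and 14 without WT replicate 4 and rd6 replicate 5. *Frzb* and *Dkk3* lost their call in 15 alternatives each and *Sfrp5* in 9, and the cause was not tested. Over all alternatives their differences ran from -0.82 to -0.51 (*Frzb*), 0.78 to 1.29 (*Dkk3*) and -0.60 to -0.42 (*Sfrp5*). With a library left out, *q* went up to 0.0998 for *Frzb* (without WT replicate 3), 0.0896 for *Dkk3* (without WT replicate 1) and 0.0743 for *Sfrp5* (without WT replicate 2). *Wnt9b* and *Rspo2* were called only without WT replicate 5 (*q* = 0.0377) and rd6 replicate 5 (*q* = 0.0449), respectively. Under upper-quartile scaling 60.0% of all called genes were higher, against 49.5% in the report, and the members split 5 higher to 6 lower. No scaling moved the median of all genes by 0.1.

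In the labels, same-numbered WT and rd6 libraries share only a number. The correlations of their deviations ran from -0.743 to 0.315, and 0 of 12 libraries correlated best with their own number. A smaller shared effect could be hidden by the large differences among libraries of the same genotype. With the replicate block, the other pathway genes that fell numbered 9, calls over all genes went from 4086 to 2942, *Sfrp5* (*q* = 0.113) and *Dkk3* (0.0863) were not called and *Wif1* was (0.0378). The differences of *Sfrp5* (-0.48), *Dkk3* (0.98) and *Wif1* (1.78) were the same with and without the block. The 10 genes under the mean of 10 and the low ligands had few reads in most libraries, and the part of depth in their spread was not tested.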

Other observations

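Among the rd6 libraries, several members were higher in replicates 1, 2 and 3, as were the summed levels of 10 markers of fibroblasts and choroidal stroma and of 10 markers of endothelium, a pattern noticed after the values were seen. The stromal sum was 21766, 18717 and 17668 normalized counts in rd6 replicates 1, 2 and 3 and 8334, 9231 and 10478 in replicates 4, 5 and 6, and the endothelial sum was 25892, 26052 and 20633 and then 11729, 14194 and 16912. In the same order of libraries, *Dkk2*, which encodes an LRP6 inhibitor, was 242, 290 and 273 and then 149, 150 and 132 normalized counts. *Sfrp2* was 339, 383 and 368 and then 162, 178 and 240. *Wnt2* was 48.4, 57.7 and 42.1 and then 22.0, 28.0 and 24.9. *Fzd1* was 1353, 1216 and 1280.5 and then 905, 776 and 752. Outside the members, *Sost* was 48.4, 50.5 and 52.4 and then 16.2, 13.5 and 12.9. The labels name no batch among the rd6 libraries, replicate numbers have no order, and no comparison between these libraries was tested. In WT, libraries with stromal sums of 13623, 15854, 16674, 17511 and 19367 had 61.9, 107, 115, 164 and 175 normalized counts of *Sfrp2*, in the same order, whereas WT replicate 4, with the highest sum (23517), had 81.6. *Dkk2* was 265, 259, 294, 196 and 240 in those 5 libraries and 245 in WT replicate 4. Between genotypes, the median stromal sum was 17092 in WT and 14073 in rd6, whereas the median of *Sfrp2* was 111 in WT and 289 in rd6.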
